A study of Rattus norvegicus with 12 samples.

Results

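Mt3, S100b, Vim, Clu and Aldoc are genes that brain biology uses as markers of astrocytes, and they were read here in tissue punches from alcoholic rats and their paired controls. An array feature was counted as a member where the probe annotation gave it a single gene symbol and that symbol was one of the 5. The rule found 12 of the 18144 features, which came from 6 cDNA clones, each printed as a pair of duplicate spots with neighbouring numbers. Mt3, S100b, Vim and Clu had 1 clone each and Aldoc had 2, against 5059 clones for the 4530 genes with a single symbol on the whole array. All 6 clones were measured in all 6 animal pairs. The 5 genes were selected on the mean difference between alcoholic and control arrays in these same data, known from earlier results. That difference is therefore given below as a description, and no p is given for it in any of the 5 genes.

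The groups were 6 samples that the labels call alcoholic and 6 controls, and the labels join them into 6 animal pairs; each sample is taken here as 1 rat, since the titles name animals, but whether the combined punches came from 1 animal is not said; the series title describes the comparison as ethanol treated against paired control. The tissue of both groups is given only as NTS, punched from slices and pooled within a sample, and RNA was amplified before labelling. Strain, age, sex, dose and duration of treatment are not given in the sources used here. Each animal's RNA carried Cy5 on 1 array and a reference RNA carried Cy3, and the labels describe the organism of the reference as rat and unidentified. Levels below are log2 ratios of sample to reference from which the array's own median was subtracted, so 0 is the middle of that array. That direction, sample over reference, was inferred from the dyes as likely; were it the reverse, all signs given here would change. Array medians before centring lay between 0.35 and 1.85. An exact 0 was taken as a missing value, and such zeros made up 3.35% of all values and 4 of the 144 member values.

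Astrocytes are the glial cells that clear transmitter and potassium from around synapses, store glycogen, supply neurons with fuel and wrap the brain's small vessels. Under injury or chronic stress they become reactive, a state in which intermediate filaments and secreted proteins are made in larger amounts. Mt3 encodes a metallothionein of the brain that binds zinc and copper. S100b encodes a calcium-binding protein that astrocytes release. Vim encodes vimentin, an intermediate filament protein of immature and reactive astrocytes that cells of vessels and meninges also make. Clu encodes clusterin, a secreted chaperone and apolipoprotein. Aldoc encodes aldolase C, the glycolytic aldolase of the brain.

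The ranges of the groups overlapped in all 6 clones, as they did in nearly all clones on the array. Mt3, S100b and Vim had positive mean differences, alcoholic minus control, of 0.22, 0.37 and 0.18 on the log2 scale, each smaller than its SD over the pairs of 0.39, 0.95 and 0.35. Clu and the first Aldoc clone differed by 0.02 and 0.01, and the second Aldoc clone by -0.14. Limma's fit over all 11852 clones and lone features, with the animal pair as a block, called 0 of all clones at an adjusted p of 0.05, a background of 0.0%. The 6 clones, being part of that fit, had 0 calls too, from which nothing is read because the difference had selected them. At an unadjusted p under 0.05 that fit held 281 clones, or 2.37%. Of the 11017 clones measured on every array, 0.00908% had groups that did not overlap, so nothing about the 6 clones is read from their overlap. In bulk tissue, a change in the number of astrocytes and a change in an RNA per astrocyte cannot be told apart.

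**Figure D1:**
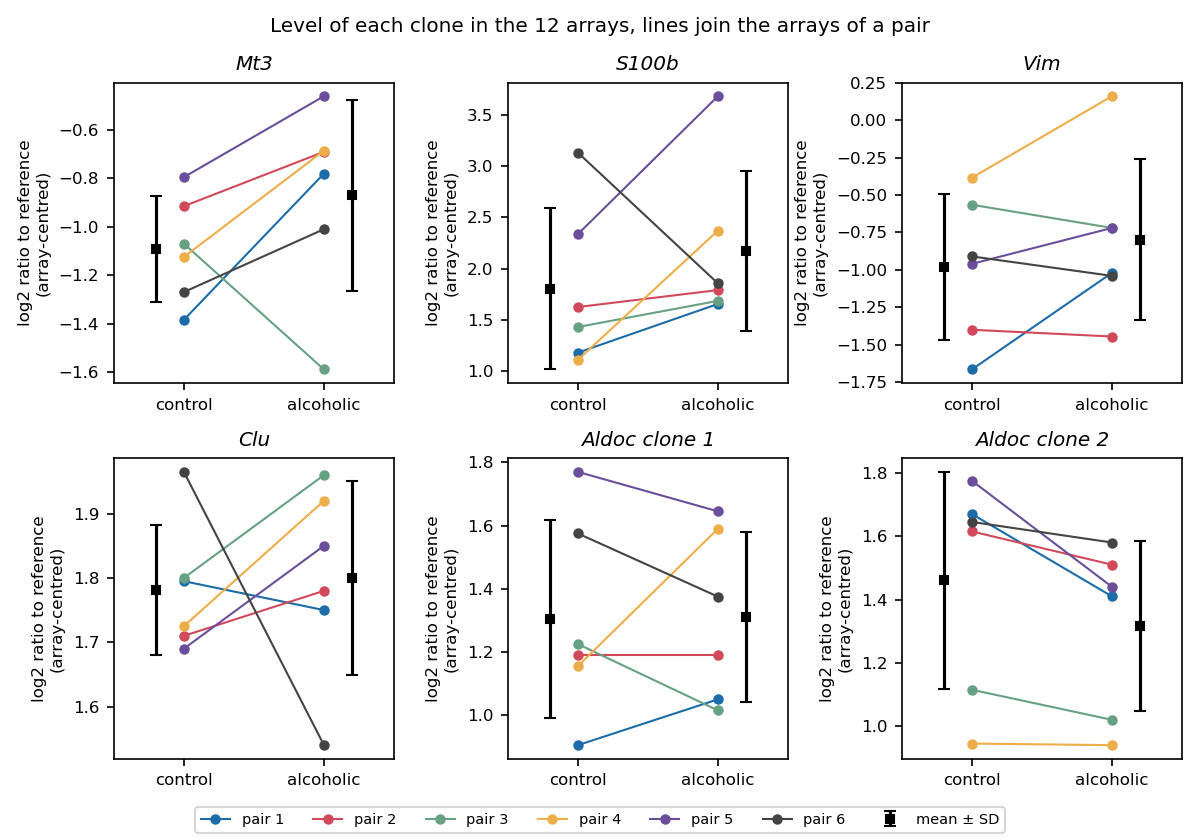
Each panel plots 1 clone's array-centred log2 ratio to the reference (vertical axis, with its own scale) in control and alcoholic arrays; coloured lines join the arrays of a pair and black squares with bars are group means ± SD (n = 6). The lines of Mt3 go up in 5 of 6 pairs and those of the second Aldoc clone go down in 6 of 6, while every panel's groups overlap.

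Among the binding proteins, Mt3 (Entrez gene 117038, features 14711 and 14712) lay below the array median on all 12 arrays. Its log2 ratio ran from -1.59 to -0.46 with a median of -0.735 in alcoholic animals, and from -1.385 to -0.795 with a median of -1.10 in controls. The means were -0.87 ± 0.40 (SD, n = 6) and -1.09 ± 0.22 (SD, n = 6). In 4 alcoholic animals Mt3 was above every control, and in 1, that of pair 3, it was below every control. The differences within pairs 1 to 6 were 0.605, 0.225, -0.52, 0.44, 0.335 and 0.26, so 5 pairs were higher and pair 3 ran the other way. Without pair 3 the mean difference of Mt3 was 0.37. Of the clones measured in all pairs, 8.56% were higher in at least 5 of 6 pairs. Its duplicate spots agreed, with mean differences of 0.28 and 0.17, both higher in 5 of 6 pairs.

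S100b (Entrez gene 25742, features 13963 and 13964) had the widest spread of the 6 clones. Its log2 ratio ran from 1.655 to 3.68 with a median of 1.82 in alcoholic animals, and from 1.11 to 3.13 with a median of 1.53 in controls. The means were 2.17 ± 0.78 (SD, n = 6) and 1.80 ± 0.79 (SD, n = 6). High values lay in single animals: pair 5 alcoholic at 3.68, pair 6 control at 3.13, and then pair 4 alcoholic at 2.37 and pair 5 control at 2.335. The other 8 arrays lay between 1.11 and 1.855. Within pairs 1 to 6 S100b differed by 0.475, 0.165, 0.255, 1.26, 1.345 and -1.275, so 5 pairs were higher and pair 6 turned by about as much as pairs 4 and 5 went up.

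The S100b pairs with large differences were the ones with missing spots. All 4 exact zeros among the member values were S100b spots: the second spot on both arrays of pair 4 and on the alcoholic array of pair 5, and the first spot on the control array of pair 6. On the first spot alone the mean difference was 0.78 ± 0.51 (SD), with 5 of 5 measured pairs higher. On the second spot alone it was -0.19 ± 0.76 (SD), with 3 of 4 measured pairs higher. The 3 pairs with both spots on both arrays, pairs 1, 2 and 3, gave 0.30 ± 0.16 (SD), 3 of 3 higher. Where both S100b spots were measured, on 8 arrays, they differed by at most 0.20. With exact zeros kept as values the mean difference of S100b was 0.14, and without pair 6 it was 0.70. Leaving out pair 4 or pair 5 brought it to 0.19 or 0.18.

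**Figure D2:**
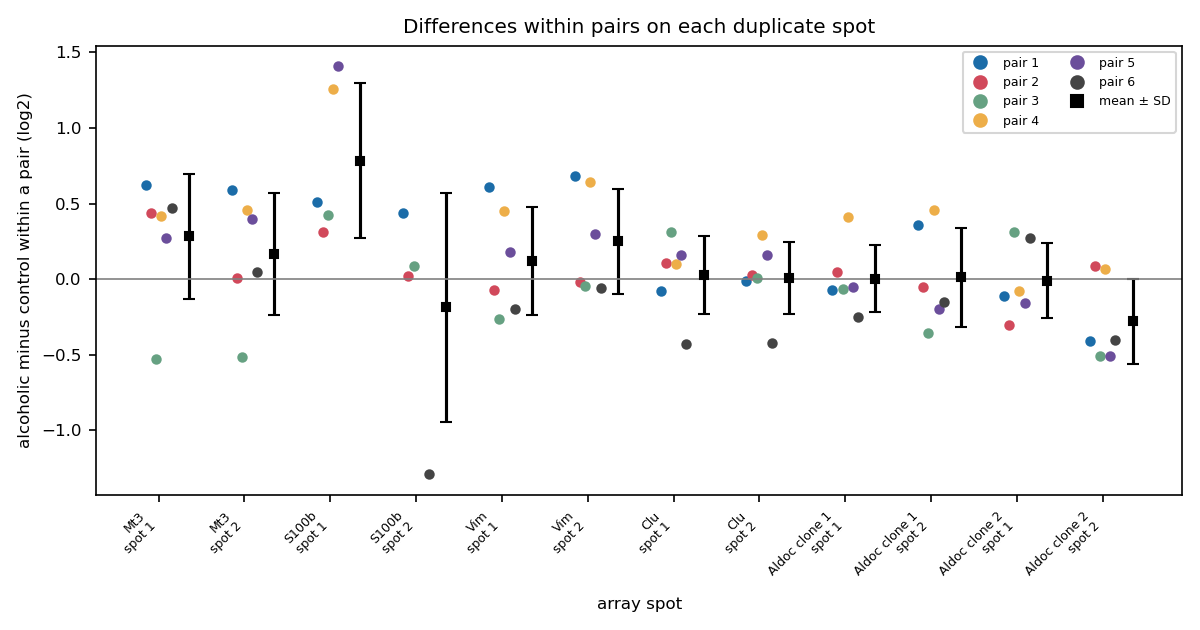
The horizontal axis holds the duplicate spots of the 6 clones and the vertical axis the difference alcoholic minus control within a pair (log2); coloured points are pairs and black squares with bars are means ± SD over the measured pairs. The spots of S100b stand at 0.78 and -0.19, with pair 6 present only on the second spot, and those of the second Aldoc clone at -0.01 and -0.28.

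Vim (Entrez gene 81818, features 3399 and 3400), the filament gene of the set, lay below the array median on every array except that of the alcoholic animal of pair 4. Its log2 ratio ran from -1.445 to 0.16 with a median of -0.87 in alcoholic animals, and from -1.665 to -0.385 with a median of -0.935 in controls. The means were -0.80 ± 0.54 (SD, n = 6) and -0.98 ± 0.49 (SD, n = 6). Pair 4 held the highest value of each group, and pairs 1 and 2 the lowest control and the lowest alcoholic value. Within pairs 1 to 6 Vim differed by 0.645, -0.045, -0.155, 0.545, 0.24 and -0.13, which is 3 higher and 3 lower. Both spots gave that count, with means of 0.12 and 0.25. Without pair 1 the mean difference was 0.09, and without pair 4 it was 0.11.

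Clu (Entrez gene 24854, features 11325 and 11326), the secreted chaperone, was held at nearly one level in all animals. Its log2 ratio ran from 1.54 to 1.96 with a median of 1.815 in alcoholic animals, and from 1.69 to 1.965 with a median of 1.76 in controls. The means were 1.80 ± 0.15 (SD, n = 6) and 1.78 ± 0.10 (SD, n = 6). The SD within groups was 0.13. Of the 662 clones and lone features whose mean level lay within 0.25 of that of Clu, 0 had a smaller SD, and their median was 0.395. Only 5525 of the 11852 clones and lone features tested had 2 features. Clu is a mean over duplicate spots, while a lone feature is a single spot, so this rank compares unlike items. Within pairs 1 to 6 Clu differed by -0.045, 0.07, 0.16, 0.195, 0.16 and -0.425. Pair 6 thus held the lowest alcoholic and the highest control value. The mean difference of 0.02 was -0.03 without centring, -0.02 after quantile normalization and 0.11 without pair 6, so it has no settled direction.

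The spreads of the other clones lay within those of clones and lone features at their level. Among these, the share with a smaller SD within groups was 41.6% for Mt3, 27.8% and 31.5% for the Aldoc clones, 74.3% for S100b and 78.9% for Vim. Here too, single spots were mixed with clones averaged over duplicate spots. The SDs themselves were 0.32 for Mt3, 0.29 and 0.31 for Aldoc, 0.78 for S100b and 0.51 for Vim, against a median of 0.36 over all clones and lone features tested. Duplicate spots differed on average by 0.08 (Clu) to 0.22 (the second Aldoc clone), where the median clone with a pair of spots differed by 0.23.

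**Figure D3:**
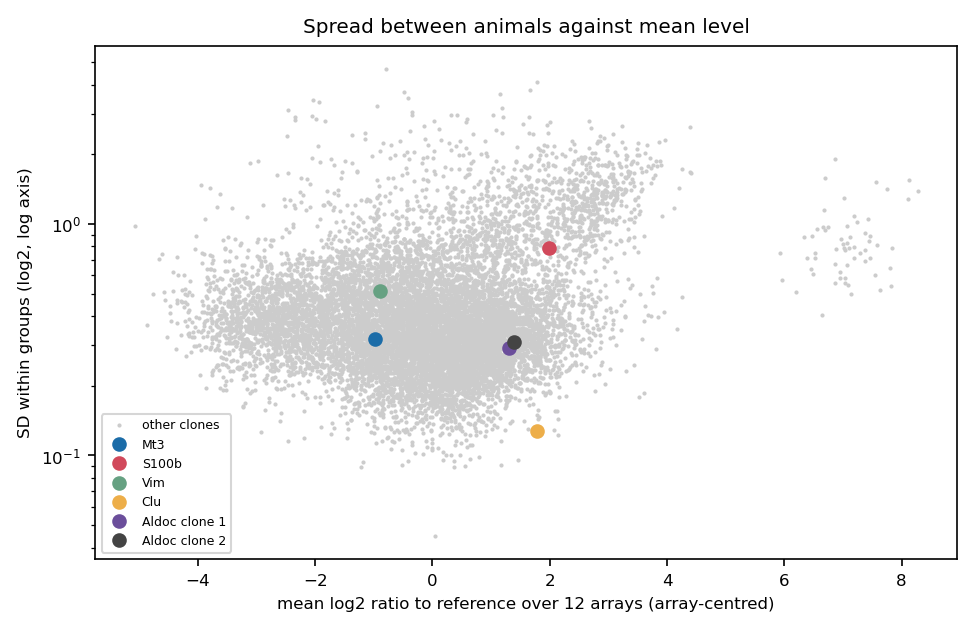
Each grey point is 1 of the clones or lone features tested. Its mean array-centred log2 ratio over the arrays is on the horizontal axis and its SD within groups on the vertical log axis. The 6 coloured points are the member clones. Clu, with an SD of 0.13, lies at the lower edge of the clones at its level, and S100b, with 0.78, in the upper part.

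Aldoc (Entrez gene 24191), the glycolytic enzyme, was read by a pair of clones whose profiles over the arrays differed. The first clone (features 8639 and 8640) ran from 1.015 to 1.645 with a median of 1.28 in alcoholic animals, and from 0.905 to 1.77 with a median of 1.21 in controls. The second (features 14414 and 14415) ran from 0.94 to 1.58 with a median of 1.425, and from 0.945 to 1.775 with a median of 1.63. Both lay above the array median on all 12 arrays, and each group's range on one clone overlapped that on the other.

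Within pairs 1 to 6 the first Aldoc clone differed by 0.145, 0.0, -0.21, 0.435, -0.125 and -0.2. The second differed by -0.26, -0.105, -0.095, -0.005, -0.335 and -0.065, so it was lower in 6 of 6 pairs, as were 0.808% of the clones measured in all pairs. That count did not hold on its single spots. Each was higher in 2 of 6 pairs, and their mean differences were -0.01 ± 0.25 (SD) and -0.28 ± 0.28 (SD). Duplicate spots of this clone correlated at only 0.67 over the 12 arrays (description, duplicate spots share the array), against 0.86 for the first clone. The mean difference of the first clone had no settled direction, with values from -0.08 (without pair 4) to 0.05 (without pair 3).

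The second Aldoc clone split the arrays by pair. On the 4 arrays of pairs 3 and 4 it stood between 0.94 and 1.115, and on the other 8 between 1.41 and 1.775, in both groups alike. The first clone showed no such gap. Vim ran the other way, from -0.72 to 0.16 on those 4 arrays and from -1.665 to -0.72 on the other 8. Because the arrays fall into separate clusters, no coefficient over all of them is given. Within the 8 arrays Vim and the second Aldoc clone had r = 0.03 and rho = -0.14 (exact permutation p = 0.944 and 0.75, two-sided, arrays exchanged within groups; r = 0.17 without the 2 arrays farthest in Vim).

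S100b and the first Aldoc clone varied together over the arrays. Each animal was read on 1 array, so variation between animals and between arrays cannot be told apart here. After each group's mean was subtracted, their levels had r = 0.82 and rho = 0.90 over the 12 arrays. A two-sided permutation test that exchanged arrays within groups gave p = 0.00148 and 0.00039, or 0.0222 and 0.00585 after Benjamini-Hochberg adjustment over the 15 pairs of member clones. The coefficient was 0.82 within alcoholic and 0.82 within control arrays, and 0.92 without the 2 arrays farthest in S100b. It was 0.95 over the 8 arrays with both S100b spots and 0.69 after quantile normalization, alternatives that were chosen after seeing the data. The test takes arrays as independent although the animals are paired; over the 6 pair means r was 0.94. With S100b, 0.182% of the other 11016 clones reached an r of that size, and with the first Aldoc clone 0.508% did.

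No other pair of member clones passed that adjustment, leaving aside Vim with the second Aldoc clone, whose arrays lie in clusters. The next was Mt3 with the first Aldoc clone, at r = 0.58 and rho = 0.67 (permutation p = 0.045 and 0.0237, adjusted 0.225 and 0.118; r = 0.41 without the 2 farthest arrays). S100b with the second Aldoc clone had r = 0.33 and rho = 0.27 (permutation p = 0.345 and 0.426, adjusted 0.575 and 0.759; 0.25 without the 2 farthest). The Aldoc clones themselves had r = 0.21 and rho = 0.20 (permutation p = 0.533 and 0.565, adjusted 0.656 and 0.759; -0.05 without the 2 farthest), a value that 40.2% of other clones reached with the first and 29.0% with the second. Mt3 and Vim, which both had positive mean differences, had r = 0.10 and rho = 0.14 (permutation p = 0.769 and 0.658, adjusted 0.824 and 0.759; 0.21 without the 2 farthest). The differences within pairs, which had selected the genes, gave other coefficients over the 6 pairs and are described without a test. They ran from -0.36 for S100b with the second Aldoc clone to 0.89 for S100b with Clu, with 0.81 for Vim with the first Aldoc clone, 0.73 for Mt3 with Vim and 0.54 for S100b with the first Aldoc clone.

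**Figure D4:**
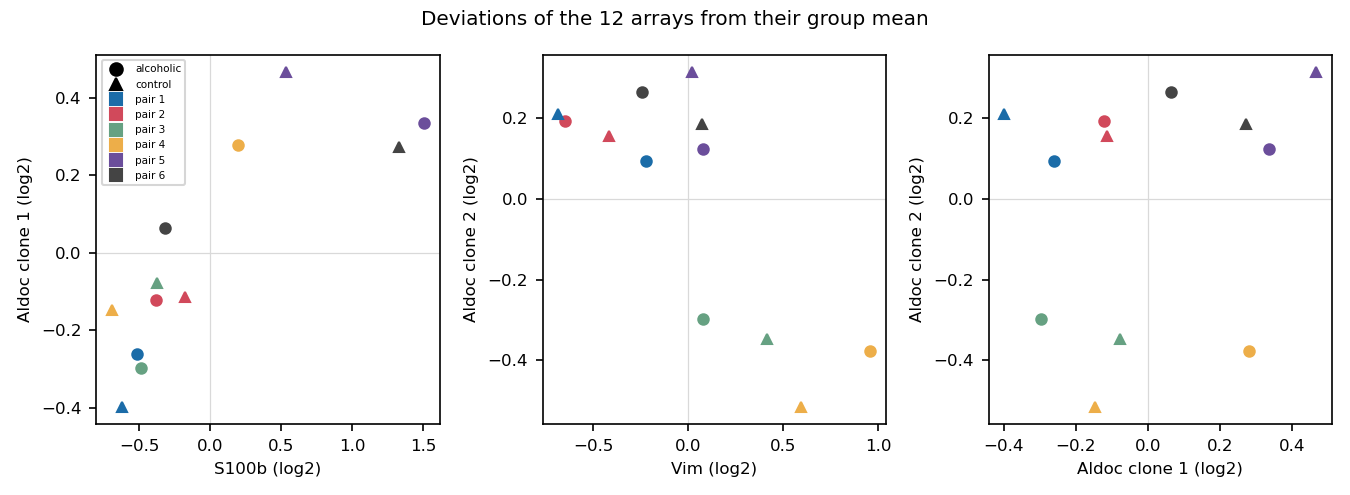
Each point is 1 of the 12 arrays, with both axes giving a clone's deviation from its group mean (log2); circles are alcoholic, triangles control, and colours mark the pair. In the left panel S100b and the first Aldoc clone lie along a line (r = 0.82), in the middle panel the arrays of pairs 3 and 4 stand apart at low values of the second Aldoc clone, and in the right panel the Aldoc clones show r = 0.21.

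Arrays of a pair were compared for each clone, a measure that does not use the difference between groups. The largest coefficient was that of the second Aldoc clone, at r = 0.94 and rho = 0.54 (exact permutation p = 0.0389 and 0.297, two-sided, n = 6 pairs); it rests on the low pairs 3 and 4 and was -0.53 without the 2 farthest pairs. Vim had r = 0.77 and rho = 0.67 between the alcoholic and the control animal of a pair (exact permutation p = 0.0611 and 0.156, two-sided, n = 6 pairs; r = 0.86 without the 2 farthest pairs). Clu had r = -0.73 and rho = -0.26 (exact permutation p = 0.113 and 0.658), which became 0.14 without the 2 farthest pairs and so rests on them. The first Aldoc clone had r = 0.65 and rho = 0.43 (exact permutation p = 0.176 and 0.419), with r = 0.22 without the 2 farthest pairs. Mt3 had r = 0.30 and rho = 0.49 (exact permutation p = 0.579 and 0.356), with r = 0.18 without the 2 farthest pairs. S100b had r = 0.27 and rho = 0.31 (exact permutation p = 0.604 and 0.564), and its r became -0.5 without the 2 farthest pairs. No clone passed after adjustment over the 6 clones, the smallest adjusted p being 0.183. The median r of the 11017 clones measured on every array was 0.36, with quartiles of -0.02 and 0.65. The deposited array median, a technical measure of the arrays, had been subtracted from each clone's level. Coefficients of that median with the clones are therefore not independent of the centring. The median was set against each clone over the 12 arrays, without subtracting group means and with arrays exchanged freely. Its r was 0.54 with Mt3 and -0.52 with Clu (permutation p = 0.0681 and 0.0868; rho 0.56 and -0.51, permutation p = 0.0593 and 0.0896; r without the 2 farthest arrays 0.54 and -0.35), and no clone passed, with a smallest adjusted p of 0.26. The group means of the array median were 0.87 in alcoholic and 0.92 in control arrays.

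For each clone the 3 clones of other genes whose level over the 12 arrays was most like it were taken from the 4788 complete clones with a single symbol, by Pearson's r and without a test. Mt3 was most like Gpat4 (0.84), Rpl41 (0.84) and Stard3nl (0.80). S100b was most like Gprc5b (0.91), Irs1 (0.84) and Ppp2r5c (0.84), and Vim like Fstl1 (0.95), Slc2a1 (0.95), the glucose transporter gene of brain vessels, and Igf2bp3 (0.94). Clu was most like Ppp1r16a (0.86), Ppp1r10 (0.85) and Cavin1 (0.82). The first Aldoc clone was most like Odf1 (0.95), the myelin gene Mog (0.89) and Tpt1 (0.88), the second like Ets1 (0.92), Manbal (0.89) and Ankrd13d (0.89). The lists share no gene, and only the highest of many coefficients are shown. Those of the second Aldoc clone run over its separate clusters of arrays and can rest on the gap between them, which was not tested.

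Of 40 other astrocyte markers, 16 genes were on the array with 19 clones; Gfap, Aqp4 and Slc1a3 had 0 features, and Slc1a2 and Glul only features with several symbols. Limma called 0 of the 19 clones, against the same background of 0.0%. Their median difference was 0.15, with 15 higher and 4 lower, where the median over all clones tested was 0.01 and 51.8% were higher. The 6 member clones had a median of 0.10, with 5 higher and 1 lower; without centring the split was 3 to 3. The 19 clones kept 15 higher without centring and after quantile normalization, with medians of 0.10 and 0.07.

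Single astrocyte markers had mean differences smaller than the SD over their pairs. That SD describes single pairs and not the error of a mean. Nes, an intermediate filament gene of immature glia, differed by 0.43 ± 1.53 (SD over 6 pairs, 3 higher). Aldh1l1, the folate enzyme widely used to mark astrocytes, differed by 0.32 ± 1.10 (SD, 3 of 4 measured pairs higher). Sparcl1, a secreted matrix protein gene, differed by 0.22 ± 0.50 (SD), Gstm1 by 0.21 ± 0.28 (SD, 5 of 6 pairs higher) and Gja1, the gap junction gene of astrocytes, by 0.16 ± 0.59 (SD, 5 of 6 pairs higher). Slc4a4, the bicarbonate cotransporter gene, differed by -0.10 ± 0.37 (SD). Of the 3 genes with a pair of clones in this list, Id4 gave 0.35 and -0.19 and Mfge8 gave 0.18 and -0.17, while the clones of Cst3 stood close together at 0.09 and 0.07.

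**Figure D5:**
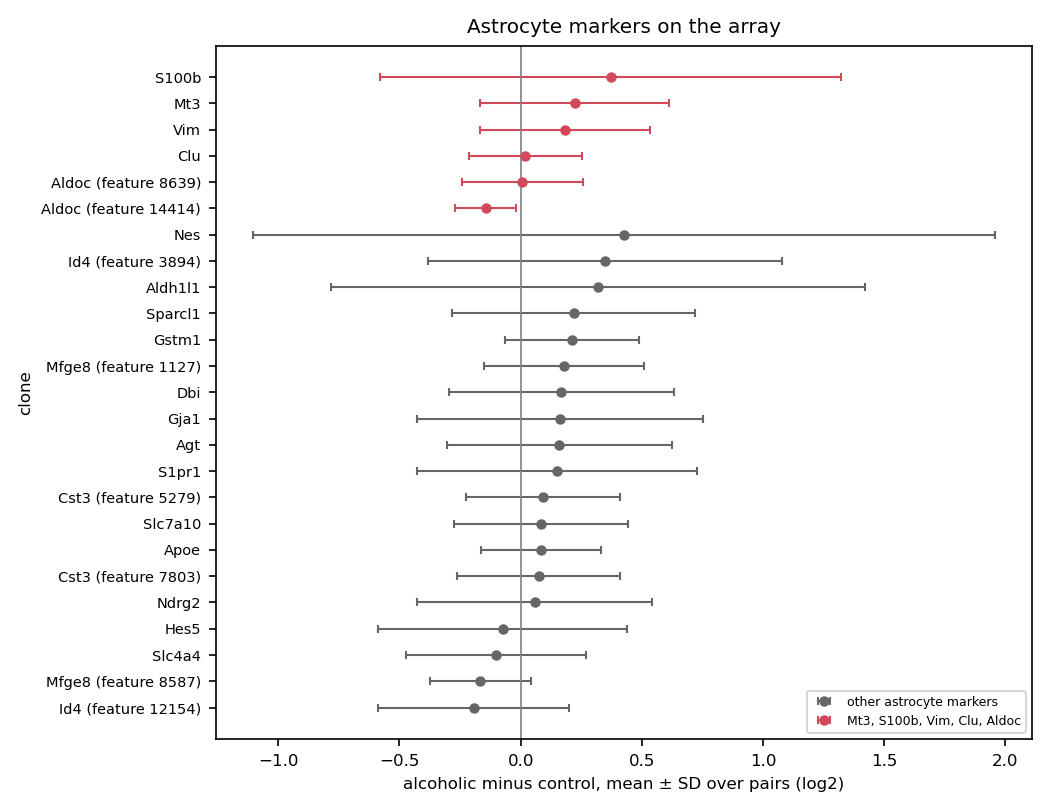
Points are the mean differences alcoholic minus control (log2, horizontal axis) of 19 clones of other astrocyte markers in grey and the 6 member clones in red, with bars of ± 1 SD over the measured pairs; genes read by more than 1 clone carry the number of the first feature. The list has 15 of 19 grey points above 0, and among the clones named in the text each bar crosses 0 except that of the second Aldoc clone.

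The pairs did not share a direction. Over pairs 1 to 6 the median difference of the 6 member clones was 0.31, 0.035, -0.125, 0.44, 0.20 and -0.165, where all clones stood at 0.07, 0.0, 0.015, 0.0, 0.02 and -0.065. The 19 clones of other astrocyte markers stood at -0.05, -0.085, 0.16, 0.075, 0.18 and -0.225. Pairs 4 and 5 were positive and pair 6 negative in both, while pairs 1, 2 and 3 had opposite signs. In pair 1 the member median was 0.31 with 4 of 6 clones higher, but the other markers had 9 of 19 higher.

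Limma called 0 clones among relatives of the member genes, beside 0.0% of all 11852 clones tested, so nothing about these relatives is read from that count. The 10 clones of other metallothionein and S100 genes had a median of -0.04 with 3 higher and 7 lower. Mt2A, the widely expressed metallothionein, differed by -0.04 ± 0.36 (SD, 3 of 6 pairs higher), and S100a10 by -1.27 ± 1.79 (SD, 1 of 6 pairs higher) with a control SD of 2.36. S100a8 stood at the other end, at 0.27 ± 1.32 (SD). The 7 clones of other intermediate filament genes had a median of 0.02 (-0.03 without centring), with Nefh of neurofilaments at 0.36 ± 0.59 (SD) Des at 0.04 ± 0.31 (SD) and the lamin gene Lmnb2 lowest at -0.14 ± 0.29 (SD). The 9 clones of other glycolysis genes had a median of -0.07 with 2 higher; the muscle-type aldolase Aldoa differed by -0.12 ± 0.19 (SD, 1 of 6 pairs higher), Ldha by -0.235 ± 0.37 (SD) and Gpi by 0.24 ± 0.495 (SD). Pfkl, a phosphofructokinase gene that was picked out after its values were seen, differed by -0.09 ± 0.08 (SD) and was lower in 6 of 6 pairs, beside the 0.808% given above. Of 13 apolipoprotein and receptor clones 10 were higher, with a median of 0.04, but only 3 were higher without centring; Apoe, the main lipid carrier of astrocytes, differed by 0.08 ± 0.25 (SD, 4 of 6 pairs higher), and the ends of the list were Abca1 at 0.135 and Apoc1 at -0.15. Genes of the reactive state had 7 of 13 clones higher, 6 lower and a median of 0.01 (-0.04 without centring). The ends of that list were Timp1 and S100a10, the latter at the -1.27 given above with 1 of 6 pairs higher. Timp1, an inhibitor of matrix proteases, differed by 0.22 ± 0.19 (SD) and was higher in 6 of 6 pairs, as were 0.799% of the clones measured in all pairs. The 3 Stat3 clones differed by 0.16 ± 0.46, -0.01 ± 0.19 and -0.74 ± 2.66 (SD, the last over 5 pairs), each by less than its SD.

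Markers of other cells that a punch can hold were set beside these values, as the array's median level over the list's clones. For 10 neuron clones it ran from 0.84 to 1.35 in alcoholic and from 0.76 to 1.21 in control arrays, with 5 higher and 5 lower (2 and 8 without centring), between Nefh at 0.36 and Eno2 at -0.07. The 8 oligodendrocyte clones lay between -0.635 and 0.03 and between -0.71 and 0.06 (5 higher, or 4 without centring; Cnp 0.15 to Tspan2 -0.50). The 7 microglia and macrophage clones lay between 0.285 and 1.055 and between 0.25 and 1.075 (6 higher, or 3 without centring; Ctsb 0.095 to Cd68 -0.03). The 12 clones of endothelium and vessel wall lay between -0.38 and 0.11 and between -0.35 and 0.005 (3 higher, or 1 without centring; Slc2a1 0.08 to Tek -0.23). The 7 blood cell clones lay between -0.03 and 0.44 and between 0.085 and 0.49 (5 higher, or 4 without centring; S100a8 0.27 to Hba-a1 -0.12). The other Hba-a1 clone had the opposite sign, at 0.10 ± 0.57 (SD), and the SDs over the pairs of S100a8 and Tspan2 were 1.32 and 1.44. Ratios to a reference do not show whether any of these markers was absent.

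The list of choroid plexus, ependyma and leptomeninges, tissue that also makes vimentin, had 7 of 9 clones higher, also without centring, and a median of 0.15, between Col1a2 at 0.57 and Aqp1 at -0.35. That Col1a2 clone had an SD over the pairs of 1.21, and the other Col1a2 clone differed by 0.135 ± 0.38 (SD). The level of the list lay between -1.32 and -0.50 in alcoholic and between -1.36 and -0.565 in control arrays. Over pairs 1 to 6 this list differed by 0.545, 0.215, -0.30, 0.015, -0.125 and -0.105, beside 0.645, -0.045, -0.155, 0.545, 0.24 and -0.13 for Vim. Both were highest in pair 1, and in pair 4 Vim was high while the list was near 0. The part of these cells in the member values was not tested.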

How the data were processed

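The authors' deposited value table was used, with 1 log2 ratio for each of 18144 features on 12 arrays with 2 colours; the sources used here do not say how the authors corrected, filtered and normalized them, nor in which direction the ratio runs. The log2 base was read from the deposited values, whose largest size of 13.92 exceeds what 16-bit signals allow in natural logs (11.09) or base 10 (4.816). Exact zeros, 484 to 726 per array, were set to missing, the median of each array was subtracted, and spots sharing an accession entry were averaged into clones. By an older platform annotation, 10118 features had a single symbol, 1092 had several and 6934 had none; genome positions and sequences were not used here.

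Clones with at least 4 measured pairs, 11852 in number, were fitted with limma 3.58.1 in R 4.3.3 (lmFit, eBayes), the animal pair as a block, with Benjamini-Hochberg adjustment at 0.05; 5013 of them had a single symbol. The labels state the pairs; deviations of paired arrays from their group means correlated across clones at 0.27, 0.34, 0.04, 0.44, 0.23 and 0.08 for pairs 1 to 6. Samples are taken as 1 animal each, which the titles imply but do not state. The p-values of limma set a mean difference against the spread of the differences within pairs. Those of the correlations come from permuting these samples. Correlations used SciPy 1.17.1 and NumPy 2.4.6 in Python 3.11.15, with 100000 permutations or exact enumeration. The intensities behind the ratios were not used here, so signal over background is unknown, which limits these values beside the number of arrays and the missing spots.

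The members and gene lists were chosen with earlier results of these data known. Named genes were the members, the clones most like them, measured astrocyte markers and relatives, and the clones at the high and low end of each other list, at most 2 at each; Pfkl was added after its values were seen. Alternatives were no centring, quantile normalization, zeros kept, single features, gene averages, complete clones, no pair block and each pair left out.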

Additional observations from a re-analysis of the deposited data

Results flagged for a closer look

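In 14 groups of 6 arrays, those of the 6 clones and of the deposited array median, 1 value stood apart from the rest of its group, where chance flags about 1 in 20. It was S100b in the alcoholic animal of pair 5, at 3.68, with the others of that group between 1.655 and 2.37. That value came from 1 of the 2 spots, since the other held an exact 0. Without pair 5 the mean difference of S100b was 0.18.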

How the results depend on the processing

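Over all clones 2 were called without centring, both features with no symbol, and 0 under every other setting (leaving out each pair included), so that the 6 clones had 0 calls throughout. The count at unadjusted p under 0.05, 281, was 136 without the pair as a block and 427 without pair 3. The median over the member clones, 0.10, ran from 0.02 on single features to 0.18 with genes averaged, and from 0.05 to 0.16 with 1 pair left out. Removing the pair block left it at 0.10 and changed no call. Because the genes were selected on this difference, nothing is read from its sign or from the signs of the clones below. Mt3 and Vim stayed positive (0.15 to 0.37 and 0.09 to 0.25) and the second Aldoc clone negative (-0.28 to -0.01). S100b was negative in 1 of 14 alternatives, Clu in 5 and the first Aldoc clone in 4. Of those 4, 1 was the gene average, which takes both Aldoc clones together. Without centring the mean levels moved by more than their SD, that of Vim from -0.89 to 0.005. The causes were not tested.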
